A study of Mus musculus with 5 samples.

Results

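Neuroendocrine lineage transcription factors were examined in prostate tumors of castrated and intact mice. The 9 genes are the rows of the deposited count table whose symbols are Neurod1, Insm1, Foxa2, Sox2, Nkx2-2, Onecut2, Hes6, Prox1 and Rest, out of 24527 genes in the table. RNA of prostate tissue was sequenced from 3 castrated and 2 intact male hHGFtg-hMETtg-BCAT-PBCre mice, each a separate animal. Both groups carried the same alleles, namely a human HGF transgene (hHGFtg), a human MET transgene (hMETtg), a stabilized form of β-catenin (BCAT) and PBCre, so that castration was the difference between them. Castration was carried out at 4 months of age, and mice of both groups were analyzed at 8 months. Human HGF is expressed throughout the body in this model. Human MET and the stabilized β-catenin are switched on by Cre under the probasin promoter, which is active in prostate epithelium and responds to androgen. The libraries held 28015507, 18951782 and 20492061 counts for castrated replicates 1 to 3, and 21560355 and 22853501 counts for the intact animals. The model was built to study prostate tumors that lack both androgen receptor activity and neuroendocrine features, and the comparison of castrated with intact tumors asks here whether factors of the neuroendocrine lineage differ after androgen withdrawal.

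Neuroendocrine cells are rare hormone-secreting epithelial cells of the prostate, and prostate tumors can take on their features under androgen deprivation. The basic helix-loop-helix activator Neurod1, together with the zinc finger factor Insm1 and the homeodomain factors Nkx2-2 and Onecut2, drive neuronal and endocrine genes. Foxa2 is a pioneer factor, Sox2 a stem cell factor and Prox1 a homeodomain regulator, and each has been linked to neuroendocrine prostate cancer. Rest is the repressor of the set. It binds a sequence called RE1 near neuronal genes, recruits corepressors and keeps those genes silent outside the nervous system. Hes6 opposes Hes1, a repressor downstream of Notch receptors.

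Promoter sequences from RefSeq on GRCm38 (mm10) were available for 6 of the 9 factors. Insm1, Onecut2 and Rest had no entry. The 250 bases before the start site are given for Foxa2, Sox2 and Prox1, because these 3 genes shared a pattern across the animals. Each is written 5′ to 3′ on the strand of the gene. Capitals mark the GC box letters GGGCGG and the CCAAT box letters CCAAT, each searched on both strands, so that CCGCCC and ATTGG are matches on the opposite strand. Foxa2 is transcribed from the minus strand (window chr2:148046970-148047219), Sox2 from the plus strand (chr3:34649745-34649994) and Prox1 from the minus strand (chr1:190170828-190171077).
Foxa2: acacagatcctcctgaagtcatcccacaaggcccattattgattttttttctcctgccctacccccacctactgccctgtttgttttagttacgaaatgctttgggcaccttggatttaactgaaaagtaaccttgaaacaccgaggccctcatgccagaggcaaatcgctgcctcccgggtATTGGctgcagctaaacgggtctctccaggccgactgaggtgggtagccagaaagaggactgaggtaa
Sox2: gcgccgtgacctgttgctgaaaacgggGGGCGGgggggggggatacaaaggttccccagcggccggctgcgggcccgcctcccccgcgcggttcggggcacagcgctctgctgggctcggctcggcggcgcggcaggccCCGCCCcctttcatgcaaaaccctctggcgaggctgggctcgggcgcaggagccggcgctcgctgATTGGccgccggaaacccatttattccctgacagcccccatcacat
Prox1: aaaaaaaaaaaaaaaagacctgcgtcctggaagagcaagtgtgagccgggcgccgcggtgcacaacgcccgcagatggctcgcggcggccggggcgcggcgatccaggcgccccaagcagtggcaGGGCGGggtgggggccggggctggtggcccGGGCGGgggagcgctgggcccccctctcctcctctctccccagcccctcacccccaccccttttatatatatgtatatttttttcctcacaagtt
In these upstream windows Sox2 held 2 GC box matches, the first beginning 223 bases before the start site, and 1 CCAAT match. Prox1 held 2 GC box matches and no CCAAT match, and Foxa2 held 1 CCAAT match, 68 bases before the start site, and no GC box match. GC content was 50.8% for Foxa2, 72% for Sox2 and 64.8% for Prox1. GGGCGG occurs in 35.7% and CCAAT in 37.4% of the 32851 RefSeq promoters of 300 bases, so these matches are common letters. The TCF/LEF letters CTTTGAT, searched because every mouse carried stabilized β-catenin, occurred in 3.73% of promoters and, among the 6 factors with a sequence, in a promoter of Foxa2 alone, 14 bases after a start site other than the one shown. A match describes the letters and is not evidence of binding.

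The RE1 sequence shows how Rest is linked to its target genes. The search used TTCAGCACC, then 2 bases of any kind, then GGACAG, any base and GC, on both strands, and counted how many of the 17 fixed letters were present in each window of 20 bases. At least 14 letters were found in 60 of the 32851 promoters, or 0.183%. Among 20 neuronal genes listed as repressed by Rest, 15 had a promoter sequence and 4 of these held such a window. Capitals in the 4 windows are the letters that match, and each is written in the direction of the search sequence.
Syn1: TTCAGCACCgcGGtCAGaGC
Gria2: TTtAGCACCgcGGACAGcGC
Celsr3: TTCAGCACCgtGGgCAGcaC
Chrm4: TcCAGCACCgaGGgCAccGC
Syn1 (chrX:20921131-20921150) and Gria2 (chr3:80802989-80803008) each matched 16 letters, Celsr3 (chr9:108825918-108825937) matched 15 and Chrm4 (chr2:91921976-91921995) matched 14. The windows of Syn1 and Celsr3 lie on the strand of the gene, and those of Gria2 and Chrm4 on the opposite strand. None of the promoters of the 6 factors reached 14 letters, and the highest match among them was 11. The absence of these letters from a window says nothing about binding of Rest elsewhere.

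The tissue was checked with cell type markers before the factors were compared. Intact replicate 2 and castrated replicate 1 stood apart by the genes given here, and castrated replicates 2 and 3 by adipocyte markers, given further below. Krt8, a keratin of luminal epithelium, had 25066, 14487 and 23476 counts in castrated replicates 1 to 3 and 25775 and 14229 counts in intact replicates 1 and 2, so each tumor held luminal epithelial RNA. Hoxb13, a prostate lineage factor, had 145, 384 and 532 counts in the castrated replicates, 77 in intact replicate 1 and 1522 in intact replicate 2. Tgm4, a secretory transglutaminase of the prostate, had 28976 counts in intact replicate 2 and at most 12 in any other sample. Pbsn, the probasin gene, had 112 counts in intact replicate 2, 13, 0 and 5 in the castrated replicates and 0 in intact replicate 1. Msmb, another secretory product on the luminal list, had 0 counts in each sample. Tgm4, Pbsn and Msmb were chosen for mention after their values were seen. Tgm4 was thus abundant in intact replicate 2 alone, and Pbsn was highest there at a low level. Castrated replicate 1 stood apart by Ret, a receptor tyrosine kinase for glial-derived neurotrophic factors, with 36724 counts against 442 and 844 in the other castrated tumors and 151 and 246 in the intact tumors. Results below are therefore also given without single libraries where these decide the value. Leaving out a single library does not remove a difference shared by castrated replicates 2 and 3. In bulk tissue, fewer cells of a type and less RNA per cell cannot be told apart.

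The factors differed widely in level. Levels between genes are given as TPM, which divides counts by gene length, as the mean ± SD over the 5 samples. Hes6 had the highest mean, 93.0 ± 48.7 TPM, followed by Sox2 at 87.2 ± 59.6, Prox1 at 71.6 ± 55.2, Foxa2 at 49.8 ± 38.6 and Rest at 41.9 ± 11.1 TPM. Values of these factors overlapped across samples, since the lowest Hes6 value, 49.7 TPM, lay below the highest Rest value, 54.7 TPM. Within each sample, however, Hes6 exceeded Rest. In castrated replicates 1 to 3 Hes6 had 113, 81.9 and 49.7 TPM and Rest 39.4, 51.7 and 34.6 TPM. In intact replicates 1 and 2 Hes6 had 167 and 53.1 TPM and Rest 54.7 and 28.8 TPM. Onecut2 was lower, at 4.86 ± 2.44 TPM, and its highest value of 8.84 TPM exceeded the lowest value of Foxa2, 5.83 TPM, and of Sox2, 8.56 TPM, both in intact replicate 2. Insm1 reached only 0.440 ± 0.299 TPM, with a highest value of 0.882 that lay below every value of Onecut2. Neurod1 and Nkx2-2 were near 0, with means of 0.0197 and 0.0159 TPM. By mean TPM over all 24527 genes, Hes6 stood at percentile 92.4, Rest at 82.2, Onecut2 at 51.0 and Insm1 at 35.3.

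**Figure D1:**
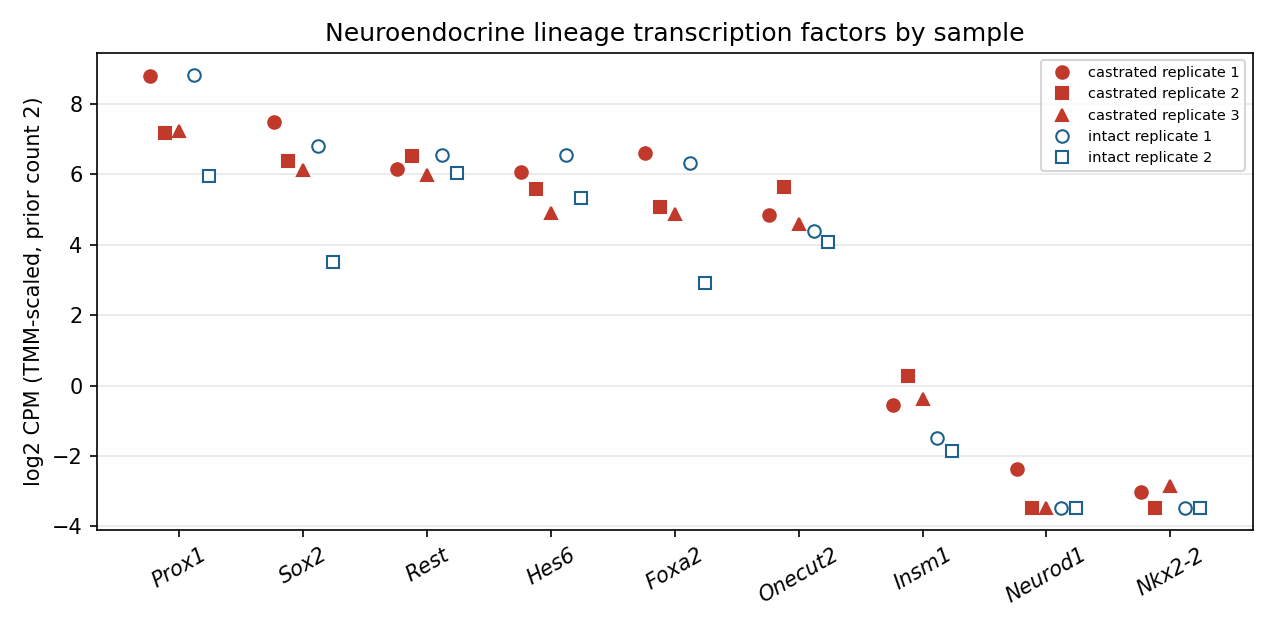
Expression of the 9 factors in each of the 5 samples. The y axis gives log2 CPM (counts scaled to library depth and TMM factor, prior count 2), red filled symbols are castrated and blue open symbols intact samples, and values near -3.5 are counts of 0. Foxa2, Sox2 and Prox1 are high in castrated replicate 1 and intact replicate 1 and lowest in intact replicate 2, while Onecut2 and Insm1 are higher in the 3 castrated samples than in both intact samples.

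Differences between the groups were tested with edgeR across the 14612 genes whose CPM, the count scaled to library depth, exceeded 1 in 2 or more samples. Of the 9 factors, 6 passed this filter, and Neurod1, Nkx2-2 and Insm1 did not. Of all genes tested, 0% (0 genes) had an adjusted p under 0.05 with an absolute log2 fold change above 1, and 0 of the 6 factors did so by the edgeR quasi-likelihood test after Benjamini-Hochberg adjustment. With an unadjusted p below 0.05 and that fold change, 7.66% of genes were higher and 3.26% lower in castrated tumors, and 0 of the 6 factors were in either set. Without intact replicate 1, 2 factors were higher at that threshold, Sox2 (unadjusted p = 0.00946, edgeR quasi-likelihood test) and Foxa2 (unadjusted p = 0.0343), where 10.8% of all genes were. Without castrated replicate 3, 1 factor was, Onecut2 (unadjusted p = 0.0490), where 4.24% of all genes were. DESeq2 called 989 genes and edgeR's likelihood ratio test 369, and neither called any of the 6 factors. Among the tested factors 3 had a positive and 3 a negative log2 fold change, with a median of 0.12 against -0.03 over all genes. Castrated samples lay above both intact samples for 2 of the 9 factors, Onecut2 and Insm1, and below them for 0, where 17.0% of all tested genes lay above and 16.1% below. One of the 6 tested factors, Onecut2, lay above. With 3 samples against 2, the smallest p of a two-sided exact permutation test is 0.2, so no such test was run.

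Neurod1, Nkx2-2 and Insm1 are endocrine fate factors that act early in islet, gut and neuronal differentiation. Neurod1 (chr2:79452639-79456636, minus strand, 2 exons) had 3 counts in castrated replicate 1 and 0 in the other 4 samples. Nkx2-2 (chr2:147177546-147186402, minus strand) had 1, 0 and 1 counts in castrated and 0 and 0 in intact samples. A count of 0 allows up to 3 counts, which is 0.104 to 0.160 CPM at the depth of these libraries, so neither gene was detectable above this floor in either group and no fold change is given. Insm1 (chr2:146221997-146225018, plus strand, a single exon) had 17, 21 and 14 counts in castrated and 6 and 4 in intact samples. The 3 castrated samples lay above both intact samples, and mean CPM was 0.798 ± 0.285 (SD, n = 3) after castration and 0.227 ± 0.0584 (SD, n = 2) in intact tumors, a ratio of 3.52. In the fit with no filter on low counts, the log2 fold change of Insm1 was 1.77 (standard error, SE, 0.72, unadjusted p = 0.0508, Benjamini-Hochberg adjusted p = 0.367, edgeR quasi-likelihood test). It was positive without each sample in turn, from 1.46 to 2.06. At a CPM minimum of 0.5 the unadjusted p was 0.0408 (edgeR quasi-likelihood test) and by DESeq2 it was 0.0447, and the adjusted p over the alternatives ranged from 0.225 to 0.816. These are few counts, and the difference did not pass the adjusted threshold in any of the settings run.

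Onecut2, a homeodomain factor linked to loss of androgen receptor activity, had 831, 933 and 492 counts in castrated and 468 and 365 in intact samples. Scaled to depth these are 28.9, 49.9 and 23.9 CPM against 20.9 and 16.9 CPM, so the castrated samples lay above both intact samples, by a narrow margin for castrated replicate 3. Its mean was 34.2 ± 13.8 CPM (SD, n = 3) after castration and 18.9 ± 2.82 CPM (SD, n = 2) in intact tumors. The log2 fold change of 0.86 (SE 0.39) had an unadjusted p of 0.0749 and a Benjamini-Hochberg adjusted p of 0.367 by the edgeR quasi-likelihood test. In each of the 14 alternative settings its direction was the same, with values from 0.48, without castrated replicate 2, to 1.06. The genes whose centred log2 CPM over the 5 samples lay nearest to Onecut2 were Soga1, Sh3bp2 and Ccr1, with root mean square differences of 0.121, 0.121 and 0.124.

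Foxa2, Sox2 and Prox1 varied more between animals of a group than between the groups. Foxa2 (chr2:148042877-148046969, minus strand) had 2799, 634 and 602 counts in castrated and 1781 and 160 in intact samples, or 97.3, 33.9 and 29.2 CPM against 79.5 and 7.41 CPM. Intact replicate 1 was 10.7 times intact replicate 2, a gap that 4.51% of tested genes matched or exceeded, and castrated replicate 1 was 2.87 and 3.33 times castrated replicates 2 and 3. The castrated values thus lay mostly between the 2 intact values. Mean CPM was 53.5 ± 38.0 (SD, n = 3) after castration and 43.5 ± 51.0 (SD, n = 2) in intact tumors, and the log2 fold change was 0.30 (SE 1.03, Benjamini-Hochberg adjusted p = 0.914, edgeR quasi-likelihood test). Without intact replicate 1 it was 2.87, and without intact replicate 2 it was -0.57. Dkk3, Map7d2 and Abcc4 lay nearest to Foxa2, with root mean square differences of 0.116, 0.123 and 0.131 log2 units. Dkk3, a secreted glycoprotein, followed it with 551, 218 and 209 CPM in castrated and 524 and 52.0 CPM in intact samples.

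Sox2 (chr3:34649995-34652460, plus strand, a single exon) had 5122, 1555 and 1427 counts in castrated and 2490 and 245 in intact samples. In CPM these are 178, 83.1 and 69.3 against 111 and 11.3, with castrated replicate 1 and intact replicate 1 on top. The intact samples differed 9.80 times, a gap matched or exceeded by 4.94% of tested genes. The log2 fold change was 0.85 (SE 0.96, Benjamini-Hochberg adjusted p = 0.708, edgeR quasi-likelihood test), and it was 3.30 without intact replicate 1 and -0.01 without intact replicate 2. Sox2 lies within Sox2ot, a long noncoding gene on the same strand whose annotated exons do not overlap it. Sox2ot was among the 3 genes nearest to Sox2 (root mean square difference 0.191), after Cxcl15, a chemokine, and Fam102b. It had 42.9, 17.0 and 19.7 CPM in castrated and 30.1 and 3.29 CPM in intact samples. Whether reads were counted by strand is not stated, and reads within introns of Sox2ot that fall on Sox2 would be counted for Sox2.

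Prox1 (chr1:190118035-190170827, minus strand, 5 exons) had the most counts of the 9 factors in 4 of the 5 samples (Rest had more in intact replicate 2), with 12898, 2710 and 3115 in castrated and 10228 and 1338 in intact samples. In CPM these are 448, 145 and 151 against 457 and 62.0, so one animal of each group was near 450 and the others were far lower. Intact replicate 1 was 7.37 times intact replicate 2, and 6.52% of tested genes lay at least as far apart. The log2 fold change was -0.06 (SE 0.92, Benjamini-Hochberg adjusted p = 0.982, edgeR quasi-likelihood test). It was 2.02 without intact replicate 1 and -0.88 without intact replicate 2, so its sign followed the choice of intact animal. Syt5, a synaptotagmin of secretory vesicles, Armcx4 and Tgtp2 lay nearest to Prox1, at 0.113, 0.126 and 0.153 log2 units.

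Prox1 also marks lymphatic endothelium, so lymphatic markers were read beside it. Of 7 such markers, all 7 were tested, 7 had a positive log2 fold change, 5 had an unadjusted p under 0.05 with an absolute log2 fold change above 1 (3 without castrated replicate 2) and 0 an adjusted p under 0.05, with a median of 1.94 (3.07 without intact replicate 1). Counts at an unadjusted p in the lists that follow use the same fold change threshold. Over all genes tested, with all 5 samples, 7.66% were higher and 3.26% lower in castrated tumors at that threshold. In castrated samples 17.0% of them lay above and 16.1% below both intact samples. Their summed CPM was 333, 543 and 550 in castrated and 192 and 108 in intact samples, with Nrp2 the most abundant by count. The defining markers were detected: Lyve1 had 735, 661 and 629 counts in castrated and 273 and 79 in intact samples, and Flt4 had 810, 375, 637, 576 and 148 counts in the same order. Mmrn1 had 1100, 594 and 1357 counts in castrated and 29 and 81 in intact samples. Between the intact samples the list was mixed. Lyve1, Flt4 and Nrp2 were higher in intact replicate 1, as Prox1 was, at 12.2, 25.7 and 129 CPM against 3.66, 6.85 and 39.6 CPM, while Ccl21a, Pdpn and Mmrn1 were lower there, at 0.0893, 22.2 and 1.29 CPM against 7.13, 45.9 and 3.75 CPM, and Reln had 1.25 and 1.16 CPM. The part of lymphatic vessels in the Prox1 values was not tested.

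**Figure D2:**
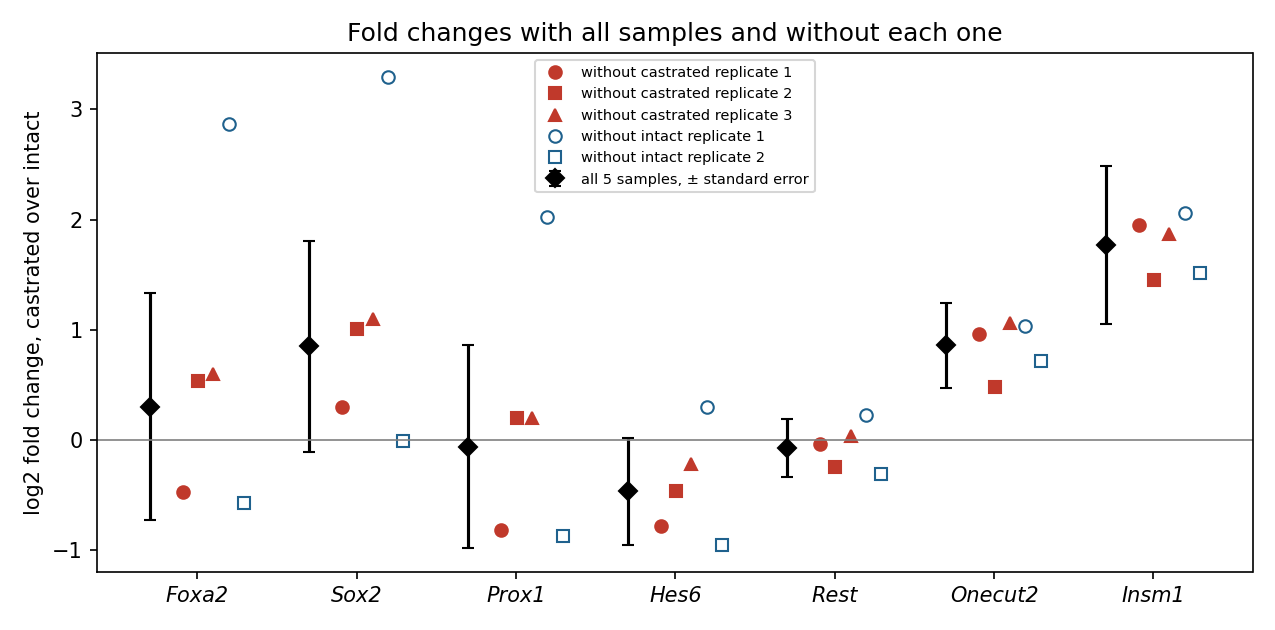
The y axis gives the log2 fold change of castrated over intact for 7 factors, with all 5 samples (black diamonds, ± standard error) and without each sample in turn (coloured symbols). Foxa2, Sox2 and Prox1 exceed 2 without intact replicate 1 and lie below 0 without intact replicate 2, whereas Onecut2 and Insm1 stay positive in each case. Insm1 values come from the fit with no filter.

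Hes6, a modulator of Notch output, and Rest, the repressor of neuronal genes, overlapped between the groups. Hes6 (chr1:91411483-91414038, minus strand, 4 exons) had 1934, 902 and 615 counts in castrated and 2111 and 862 in intact samples. Its CPM was 67.2, 48.2 and 29.9 against 94.3 and 39.9, with intact replicate 1 the highest and castrated replicate 3 the lowest. The log2 fold change was -0.47 (SE 0.49, Benjamini-Hochberg adjusted p = 0.680, edgeR quasi-likelihood test), and 0.30 without intact replicate 1. Rnft2, Bok and Tmem63b lay nearest to Hes6, at 0.0856, 0.0900 and 0.0947 log2 units.

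Rest (chr5:77265494-77283697, plus strand, 4 exons) had 2051, 1737 and 1306 counts in castrated and 2109 and 1424 in intact samples. Its CPM was 71.3, 92.8 and 63.4 against 94.2 and 66.0. The highest sample was only 1.49 times the lowest, the smallest such ratio among the 6 tested factors. The log2 fold change was -0.08 (SE 0.26, Benjamini-Hochberg adjusted p = 0.912, edgeR quasi-likelihood test), and values without each sample ranged from -0.31 to 0.22. Of 15 cofactors and regulators of Rest, 14 were tested and 0 had an unadjusted p under 0.05 in either direction. Among those tested, 4 were positive and 10 negative, and the median log2 fold change was -0.11. Without castrated replicate 3, 7 were positive and 7 negative (median -0.02). Without intact replicate 1, 6 were positive and 8 negative (median -0.01). Ctbp1, Hdac2 and Hdac1, corepressor subunits with the highest mean TPM of this list, had log2 fold changes of -0.05, -0.21 and 0.31. Rcor2 and Rcor1, subunits of the CoREST complex, had values of -0.50 and -0.39. The direction of Rcor2 rested on intact replicate 1, with a castrated mean of 5.71 CPM and intact values of 11.6 and 4.59 CPM. Ehmt2, a histone H3 lysine methyltransferase, was the 1 gene of the list below both intact samples in each castrated sample, with a log2 fold change of -0.35 (SE 0.17, Benjamini-Hochberg adjusted p = 0.397, edgeR quasi-likelihood test). Srrm4, a splicing factor that inactivates Rest in neurons, had 290, 42 and 71 counts in castrated and 122 and 146 in intact samples, and it was chosen for mention after its values were seen.

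Genes that Rest represses in other tissues were read next. Of 20 such neuronal genes, 15 were tested. Their log2 fold changes were positive for 13 and negative for 2, with a median of 1.76, and 6 had an unadjusted p under 0.05, each higher in castrated tumors (1 more was lower without intact replicate 1). In 9 of the 15 the castrated samples lay above both intact samples, and in 0 below. Of all genes tested, 7.66% were higher at that unadjusted threshold and 17.0% lay above both intact samples. L1cam, Stmn2 and Tubb3, an adhesion molecule and 2 microtubule proteins with the highest mean TPM of the list, had log2 fold changes of 0.92, 0.10 and -1.35. The negative value of Tubb3 rested on intact replicate 2, with a castrated mean of 2.55 CPM and intact values of 1.88 and 11.2 CPM. L1cam had a castrated mean of 22.3 CPM and intact values of 4.11 and 19.5 CPM. Of the genes with an RE1 window shown above, Syn1, a synaptic vesicle protein, had 78, 102 and 61 counts in castrated and 34 and 25 in intact samples, with a log2 fold change of 1.46 (SE 0.54, Benjamini-Hochberg adjusted p = 0.321, edgeR quasi-likelihood test). Celsr3, an axon guidance cadherin, had 32, 42 and 18 counts in castrated and 37 and 6 in intact samples, and these groups overlapped. The glutamate receptor gene Gria2 had 16, 3 and 27 counts against 2 and 0, and the muscarinic receptor gene Chrm4 had 2, 1 and 0 against 2 and 13, so neither was tested. The largest values belonged to the granin genes Chga, Scg3 and Chgb, which are also on the list of neuroendocrine products.

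Products of neuroendocrine cells were read beside the factors, and action of the factors on them was not tested. Of 18 genes, 13 were tested, and 10 had a positive and 3 a negative log2 fold change (12 and 1 without intact replicate 1). The median was 2.34 (3.26 without intact replicate 1). At an unadjusted p under 0.05, 8 of the 13 were higher and 0 lower in castrated tumors (6 higher and 2 lower without intact replicate 2, and 5 higher with the replicate number as a block), in 9 the castrated samples lay above both intact samples, and 0 had an adjusted p under 0.05. With all 5 samples, 7.66% of all genes tested were higher at that unadjusted threshold and 17.0% lay above both intact samples. Chga, Chgb, Scg2, Scg3 and Syp also belong to the neuronal list, so the lists are not independent. Chga, the chromogranin of dense core vesicles, had 127, 99 and 134 counts in castrated and 2 and 4 in intact samples, or 5.40 ± 1.05 (SD, n = 3) against 0.137 ± 0.0679 (SD, n = 2) CPM. Its log2 fold change was 5.25 (SE 0.61, unadjusted p = 0.000225, Benjamini-Hochberg adjusted p = 0.289, edgeR quasi-likelihood test), and the adjusted p was 2.37e-09 by DESeq2 and 6.25e-06 by the edgeR likelihood ratio test. Tph1, the first enzyme of serotonin synthesis, had 219, 150 and 219 counts in castrated and 5 and 9 in intact samples, with a log2 fold change of 4.75 (SE 0.53, Benjamini-Hochberg adjusted p = 0.289, edgeR quasi-likelihood test). Chga and Tph1 did not overlap between the groups, and without each sample in turn their log2 fold changes ranged from 4.84 to 5.83 and from 4.39 to 5.26.

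Other secretory products followed at low counts. Scg3, a granin, had 55, 63 and 111 counts in castrated and 4 and 2 in intact samples. Syp, a synaptic vesicle membrane protein used to stain neuroendocrine tumors, had 90, 30 and 127 counts in castrated and 7 and 14 in intact samples, with a log2 fold change of 2.91 (SE 0.82, Benjamini-Hochberg adjusted p = 0.290, edgeR quasi-likelihood test). In TPM, Chga averaged 4.07, Tph1 2.66, Scg3 2.34 and Syp 2.22 over the 5 samples, below the mean of Onecut2. Within the castrated samples, Chga averaged 6.68 TPM and Onecut2 6.03 TPM, while Tph1, Scg3 and Syp stayed below Onecut2. The groups overlapped for the 3 products with the highest mean TPM over the 5 samples, Cpe, Eno2 and Ncam1. Castrated mean TPM of Chgb and Chga was 7.19 and 6.68, above that of Ncam1, 5.26. Cpe, a carboxypeptidase that matures prohormones and is also found in other cells, had 16761, 4912 and 4121 counts in castrated and 27520 and 6042 in intact samples, with a log2 fold change of -1.11 (SE 0.74). Eno2, an enolase, and Ncam1, a cell adhesion molecule, had log2 fold changes of 1.21 (SE 0.74) and -0.37 (SE 0.60). The negative values of Cpe and Ncam1 rested on intact replicate 1. Cpe had a castrated mean of 348 CPM against 280 CPM in intact replicate 2, and Ncam1 had 21.8 against 10.8 CPM. The summed CPM of all 18 genes, 643, 335 and 300 in castrated and 1289 and 302 in intact samples, was set mainly by Cpe.

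Another 30 neuroendocrine and neural transcription factors were counted with the 9. Of these, 13 were tested, 9 were positive and 4 negative with a median log2 fold change of 0.40 (-0.01 without intact replicate 1 and 1.22 without intact replicate 2), and 6, among them Neurod2, Neurog2 and Insm2, had no count in any sample. At an unadjusted p under 0.05, 3 were higher and 0 lower in castrated tumors (2 higher and 1 lower without intact replicate 1, and 5 higher without intact replicate 2), St18 and Sox1 among them, and in 3 the castrated samples lay above both intact samples. Sox11, named after its values were seen, was the 1 tested gene below both, and 0 had an adjusted p under 0.05. St18, a zinc finger factor, had 1014, 119 and 89 counts in castrated and 15 and 24 in intact samples, with a log2 fold change of 4.10 (SE 1.19), or 2.58 without castrated replicate 1. Sox1, a neural relative of Sox2, had 16, 23 and 23 counts in castrated samples and 0 in both intact samples. The castrated mean of Sox1, 0.967 CPM, was 7.09 times a floor of 3 counts in each intact library, 0.136 CPM on average. This lower bound applies to the mean and covers counting error only, and castrated replicate 1 had 0.556 CPM. The abundant members of this list did not share a direction. Sox4, an epithelial and progenitor factor, had a log2 fold change of 0.03 (SE 0.42), and Foxa1, the luminal partner of the androgen receptor, one of -0.09 (SE 0.61). Mycl, a MYC family factor, had 2252, 583 and 1166 counts in castrated, 111 in intact replicate 1 and 10926 in intact replicate 2, and its log2 fold change was -2.21, or 3.48 without intact replicate 2.

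**Figure D3:**
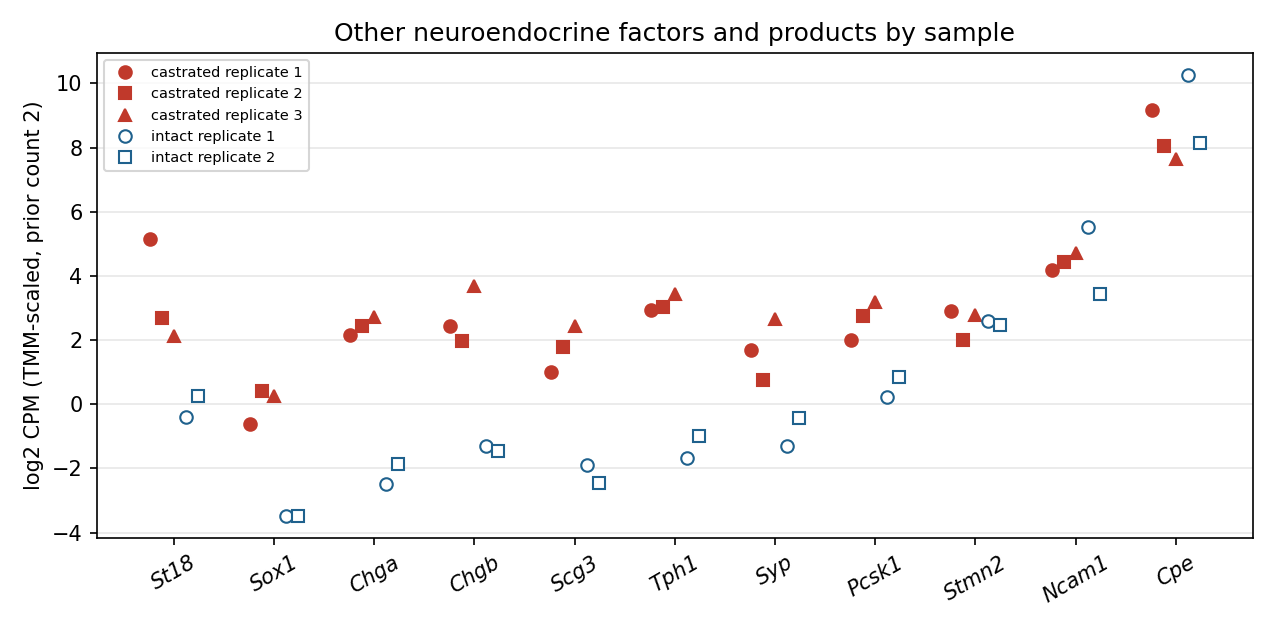
The y axis gives log2 CPM (TMM-scaled, prior count 2) of other neuroendocrine factors (St18, Sox1), of neuroendocrine products and of Stmn2, a neuronal gene, in each sample, with red filled symbols for castrated and blue open symbols for intact tumors. Values near -3.5 are counts of 0. The castrated samples lie above both intact samples from St18 to Pcsk1 on the axis, and the groups overlap for Stmn2, Ncam1 and Cpe.

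Transcripts of Notch signalling, which restrains neuroendocrine fate and with which Hes6 interacts, showed no common direction, and activity of the pathway was not measured. Of 17 Notch and HES genes, 14 were tested, 7 were positive and 7 negative, the median log2 fold change was 0.04 (0.30 without intact replicate 1), and 0 had an unadjusted p under 0.05 (2 without intact replicate 1). Hes1, the main Notch-induced repressor, had 2580, 1233 and 1423 counts in castrated and 2516 and 1795 in intact samples, with a log2 fold change of -0.38 (SE 0.24). Jag1, a ligand, and Rbpj, the DNA-binding effector of the pathway, had log2 fold changes of 0.39 (SE 0.69) and 0.13 (SE 0.42). With all 5 samples, the largest absolute values were those of the receptor genes Notch4, at -1.10 (SE 0.79), and Notch3, at 0.72 (SE 0.43), and of the ligand gene Dll1, at 0.81 (SE 0.39). The direction of Notch4 rested on intact replicate 1, with a castrated mean of 10.8 CPM and intact values of 36.3 and 9.91 CPM. Dll1, with 169, 160 and 174 counts in castrated and 81 and 110 in intact samples, was the 1 tested gene of the list whose castrated samples lay above both intact samples.

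**Figure D4:**
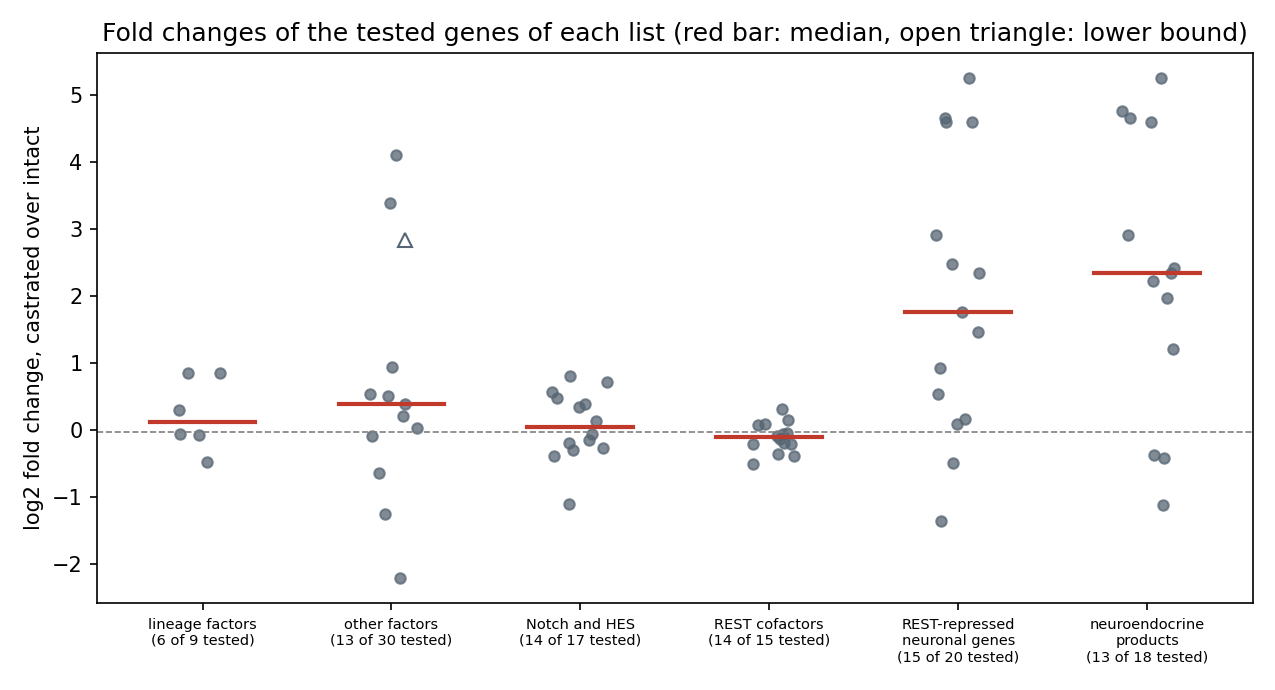
Each grey point is the log2 fold change (y axis, castrated over intact) of 1 tested gene in 6 gene lists, red bars are list medians, and the dashed line is the median of all genes tested, -0.03. Sox1, with no count in either intact sample, is drawn as an open triangle at its lower bound. Medians are 0.12 for the lineage factors, 1.76 for neuronal genes repressed by Rest and 2.34 for neuroendocrine products. Chga, Chgb, Scg2, Scg3 and Syp are drawn in both of the last lists.

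Markers of other cell types that could carry these transcripts also differed between the samples. Of 11 autonomic neuron markers, 6 were tested, 4 were positive and 2 negative, 2 had an unadjusted p under 0.05 (1 without intact replicate 2), and the median log2 fold change was 0.87 (3.37 with 6 positive without intact replicate 1, and 0.26 with 3 positive without intact replicate 2). The defining gene Th was near 0, with at most 5 counts in any sample, while Prph, an intermediate filament, had 45, 53 and 144 counts in castrated and 3 and 7 in intact samples. The summed CPM of this list was 1285, 43.0 and 56.4 in castrated and 21.2 and 15.3 in intact samples. Ret, its most abundant gene, set the value of castrated replicate 1. It had 1277, 23.6 and 41.0 CPM in castrated and 6.74 and 11.4 CPM in intact samples. The log2 fold change of Ret was 5.62 (SE 2.19), or 1.84 without castrated replicate 1. Of 7 Schwann cell markers, 5 were tested, all 5 were positive, 2 had an unadjusted p under 0.05 (1 when either intact replicate was left out), and the median was 1.95 (3.28 without intact replicate 1). Their summed CPM was 17.5, 42.3 and 35.7 in castrated and 14.4 and 5.19 in intact samples, with S100b the most abundant. Sox10, a defining Schwann gene, had 9, 9 and 61 counts in castrated and 4 and 0 in intact samples. The part of nerve tissue in the values of the neuronal genes and of the neuroendocrine products was not tested.

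Adipocyte markers marked 2 castrated libraries. All 10 were tested and positive, 6 had an unadjusted p under 0.05 (1 when either intact replicate was left out and 9 without castrated replicate 1), and their summed CPM was 54.1, 695 and 650 in castrated and 36.1 and 91.0 in intact samples. Their log2 fold changes had a median of 8.92, or 7.52 with genes absent from both intact samples at their lower bound. Adipoq, an adipocyte hormone, had 15, 1282 and 1402 counts in castrated and 0 and 2 in intact samples, Plin1, a lipid droplet protein, had 3, 612, 727, 2 and 0 in the same order, and Fabp4 was the most abundant. The part of adipose tissue in the values of other genes was not tested. Skeletal muscle markers were low in each sample, with Acta1 at 9 counts or fewer, Ckm at 1 or fewer, 1 of 8 genes (Mb) tested, and a summed CPM of at most 3.38.

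Epithelial markers were measured for the same reason. Of 5 basal epithelium markers, 2 were positive and 3 negative with a median log2 fold change of -0.19, and 1, Krt15, had an unadjusted p under 0.05. This direction rested on single intact animals, since 5 were positive without intact replicate 2 (median 2.55, 4 at an unadjusted p under 0.05) and 4 negative without intact replicate 1 (median -1.05, 0 at an unadjusted p under 0.05). Their summed CPM was 367, 413 and 1025 in castrated and 101 and 807 in intact samples. Krt5, a basal keratin and the most abundant by count, had 3665, 1687 and 5958 counts in castrated and 645 and 8708 in intact samples, and Trp63, the basal master factor, had 619, 576, 1813, 136 and 2174. Krt15, the basal marker with the highest mean TPM, had 115, 171 and 372 CPM in castrated and 27.0 and 56.9 CPM in intact samples. Krt5 and Trp63 were therefore lowest in intact replicate 1 and highest in intact replicate 2, whereas Krt15 was lower in both intact samples than in each castrated sample. Of 9 luminal epithelium markers, 6 were tested, 1 was positive and 5 negative with a median of -0.33 (0.05 without intact replicate 1), and 1 had an unadjusted p under 0.05 (0 when intact replicate 2 or any 1 castrated replicate was left out). Their summed CPM was 3074, 2884 and 3486 in castrated and 4471 and 4854 in intact samples, with Krt8 the most abundant by count and Krt18 by TPM. In intact replicate 2, where Foxa2, Sox2 and Prox1 were lowest, Hoxb13 and Tgm4 were highest, whereas Krt8 and Epcam were lowest, at 659 and 509 CPM, and Krt18 and Cdh1 were neither. The part of tissue composition in the values of these 3 factors was not tested.

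**Figure D5:**
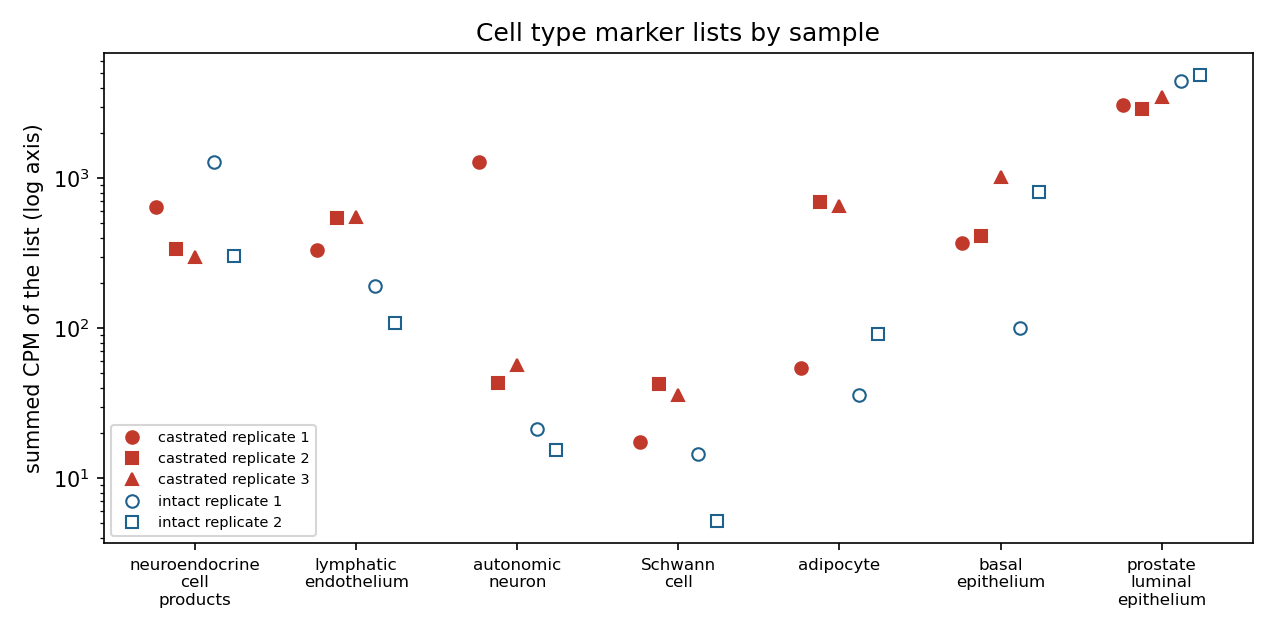
The y axis (log scale) gives the summed CPM of each marker list in each sample, with red filled symbols for castrated and blue open symbols for intact tumors. Lymphatic markers lie between 333 and 550 CPM in castrated and at 192 and 108 CPM in intact samples. The single high autonomic neuron value, 1285 CPM in castrated replicate 1, was set by Ret.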

How the data were processed

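Prostate tissue RNA of 3 castrated and 2 intact mice was compared, each mouse a separate animal grouped by its labels. All 5 libraries were used. The authors depleted ribosomal RNA, used Trimmomatic 0.39 for trimming, STAR 2.7.9 for alignment to mm10 and HTSeq 2.0.2 for counting, and deposited raw counts per gene without normalization. The strand setting of counting is not given in the sources used here. The table also holds a gene length in kilobases, used here for TPM, and 0 further columns of sample values.

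Counts were analyzed with R 4.3.3 and edgeR 4.0.16. The 14612 of 24527 genes whose CPM, scaled here to library size alone, exceeded 1 in 2 or more samples were kept. After TMM normalization these genes entered the quasi-likelihood F-test. CPM values printed for genes are counts scaled to library size and TMM factor. A gene was called when its Benjamini-Hochberg adjusted p was below 0.05 and its log2 fold change exceeded 1 in absolute size. The test and thresholds follow the methods of the study, which name TPM as input, whereas counts were used here. Standard errors were taken as the size of the log2 fold change over the root of F. The common dispersion between animals was 0.238, so differences between animals limit precision more than depth does, except at few counts, and floors cover counting error only. On simulated data drawn from these samples, 101 of 191 genes with an absolute log2 fold change of 3 and 9 unchanged genes were called among 14362 genes.

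The named genes were the 9 factors, from each of 12 lists the 3 genes with the highest mean TPM, the 3 tested genes with the largest absolute log2 fold change and the defining markers, and for each factor that spanned more than 1 log2 unit the 3 nearest genes by root mean square difference of centred log2 CPM (prior count 2). Genes with an RE1 window are named for their sequence, and those added after their values were seen are marked in the text, apart from the genes named for having no count in any sample and Pcsk1, which is drawn only. Some genes of the lists are not reported here by name but stay in the list totals. The members and lists were chosen with earlier results of these data known. Promoters are 250 bases before to 50 after each start in RefSeq (GRCm38), and exon numbers are from GENCODE on the same build.

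Alternatives were DESeq2 1.42.0, the likelihood ratio test, limma voom (limma 3.58.1), other scalings and filters, other thresholds, each replicate left out and the replicate number as a block. The older quasi-likelihood fit of edgeR, the counts and list medians without each replicate, and for Insm1 DESeq2, the block and each replicate left out were chosen after seeing the data. Same-numbered samples come from different animals, so the numbers do not pair them. Replicates of a group differed beyond sampling noise by a chi-square test of counts, so none was a duplicate.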

Additional observations from a re-analysis of the deposited data

How the results depend on the processing

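Across all genes, 0 were called with limma voom, other scalings, other filters, no fold change threshold and the older edgeR fit, but 989 with DESeq2, 369 with the likelihood ratio test and 1596 without adjustment. Leaving out each sample gave 0 to 1 gene, the 1 being Coch without intact replicate 1 (32126 counts in intact replicate 2), named after its value was seen. Of the 9 factors, between 2 and 5 lay above and between 0 and 3 below the intact samples, with 5 above without intact replicate 1 (35.4% of all tested genes in that setting) and 3 below without intact replicate 2 (31.4%). Without a sample in turn, log2 fold changes ranged from -0.57 to 2.87 for Foxa2 (-0.48 without castrated replicate 1), from -0.013 to 3.30 for Sox2, from -0.96 to 0.30 for Hes6, from -0.88 to 2.02 for Prox1 and from -0.31 to 0.22 for Rest. Without castrated replicates 2 and 3, Prox1 was 0.20 and 0.19, and Rest was 0.04 without castrated replicate 3. With limma voom, Prox1 was 0.31. With a replicate block by number, Prox1 was 0.60, Rest 0.046, Foxa2 1.23, Sox2 1.77 and Hes6 -0.11, the median of the 6 tested factors was 0.81 with 5 positive, and 0 genes were called (975 without adjustment), while deviations of same-numbered samples correlated at 0.149 and -0.045. The cause of these changes was not tested. The 6 tested factors were all positive without intact replicate 1 (median log2 fold change 1.53), and 1 was positive without intact replicate 2 (median -0.44). Where 1 intact sample remained, it was assumed to vary like the castrated samples. Medians of neuroendocrine products stayed between 2.15 and 3.26 without a sample, those of the other factors between -0.01 and 1.22. Insm1, Neurod1 and Nkx2-2 are limited by depth.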
